A study of Rattus norvegicus with 43 samples.

Results

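Rat primary hepatocytes (RPH) cultured for 48 hours were compared with intact liver, to describe which liver transcripts are kept, lost or gained in culture. The comparison took the arrays titled T48 RPH and Liver, which are 17 of the 43 arrays of the series and 6 of its 15 rat-by-group samples. Both sides came from the same 3 male Sprague Dawley rats, none of them dosed with a test compound, and no age is stated for the rats. Per the methods the animals were injected with sodium pentobarbital before they were killed, which both sides share. The liver sample of each rat was a lobe tied off before the perfusion, so it held all cells of the tissue together (9 arrays, 3 per rat). The 48 hour sample was a culture of perfusion-isolated cells from the rest of that liver (8 arrays, since the authors left out 1 array of rat 2 on quality grounds). The cells lay flat on collagen-coated plates in William's E medium with insulin, transferrin and dexamethasone, with serum for the first 4 hours and without serum after that.

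The hepatocyte makes most plasma proteins, turns ammonia into urea, makes glucose and bile acids, and oxidizes drugs with cytochrome P450 enzymes. In the organ it sits in plates between sinusoids, in contact with endothelial cells, Kupffer cells (the liver macrophages) and stellate cells (the vitamin A storing pericytes). Hepatocytes spread on a stiff flat surface are known to lose much of this specialised expression and to build stress fibres, a change usually called dedifferentiation.

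RNA from each sample was measured on Affymetrix RG230-2 arrays, and the deposited MAS5 signals (intensity units scaled by the authors to a trimmed mean of 500 on each array) were taken to log2 and averaged over the technical arrays of each rat, so that n = 3 rats a side. The median signal of an array was 108 to 145 in liver and 86.1 to 112 at 48 hours, and the number of rats limits the precision (median SE of a log2 fold change 0.22). The 3′ to 5′ signal ratio of beta-actin, a measure of RNA and labelling quality, was 3.21 to 6.96 over the 3 livers and 1.95 to 2.46 over the 3 cultures as the mean of the technical arrays, and it did not overlap on single arrays either (2.89 to 7.68 against 1.88 to 2.60). With this ratio as a covariate 2840 genes were called in place of 5102 and 2494 were kept in place of 4313, and since the ratio separates the groups its part cannot be told apart from that of culture. The hepatocyte label was checked against its defining markers, and Alb, Ttr and Apoa1 lay above the median on all 9 liver and all 8 culture arrays.

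Of 10643 genes tested with limma (Benjamini-Hochberg adjusted p below 0.05), 5102 differed between 48 hours and liver, which is 47.9% of all genes tested. There were 2700 rises (25.4%) and 2402 falls (22.6%). Liver and culture values did not overlap among the rats in 4994 of the called genes. The same held for 6303 of all 10643 genes tested, so such separation also occurred among genes not called. It is a description and not separate evidence for the calls. Without rat 2 the calls fell to 3361. The balance of rises and falls depended on the scaling. Rises were 52.9% of the calls on the deposited scale and 54.0% after quantile normalization, but 74.9% (4317 rises and 1443 falls) with every array centred on its median, which moved the median gene from a log2 fold change of 0.04 to 0.43. Changes below are on the deposited scale, and small ones are to be read against that shift.

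A gene was counted as expressed in liver when its signal exceeded the median of the array on all 9 liver arrays, which held for 8225 genes. Of these, 4313 (52.4%) were kept, meaning that the 95% interval of the fold change lay within 2-fold of liver on either side. Another 944 (11.5%) were lowered, falling at least 2-fold at adjusted p below 0.05, and a further 159 (1.93%) were lost, falling likewise and not exceeding the array median on any 48 hour array. Conversely, 734 (8.92%) were raised by at least 2-fold. The remaining 2075 had intervals that crossed the 2-fold limit or changes that were called but smaller. Of 444 genes that exceeded the median on no liver array, 129 (29.1%) were gained, rising at least 2-fold and exceeding the median on all 8 culture arrays. To be tested, a gene had to exceed the median on at least 5 arrays of the series. The 444 genes therefore passed only through arrays of isolated or cultured cells. Their gained share is partly set by that filter and is not a share of all genes low in liver. These classes are defined by the same contrast, so their sizes are descriptions. The median log2 fold change was 0.07 for kept, -1.65 for lowered, -3.36 for lost, 1.34 for raised and 2.89 for gained genes. Kept did not mean identical, because 807 of the kept genes passed the test with differences within 2-fold. It also belongs to a probe set: of 1373 kept genes with another probe set that passed the filter on low signals, 262 had one that moved beyond 2-fold.

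**Figure D1:**
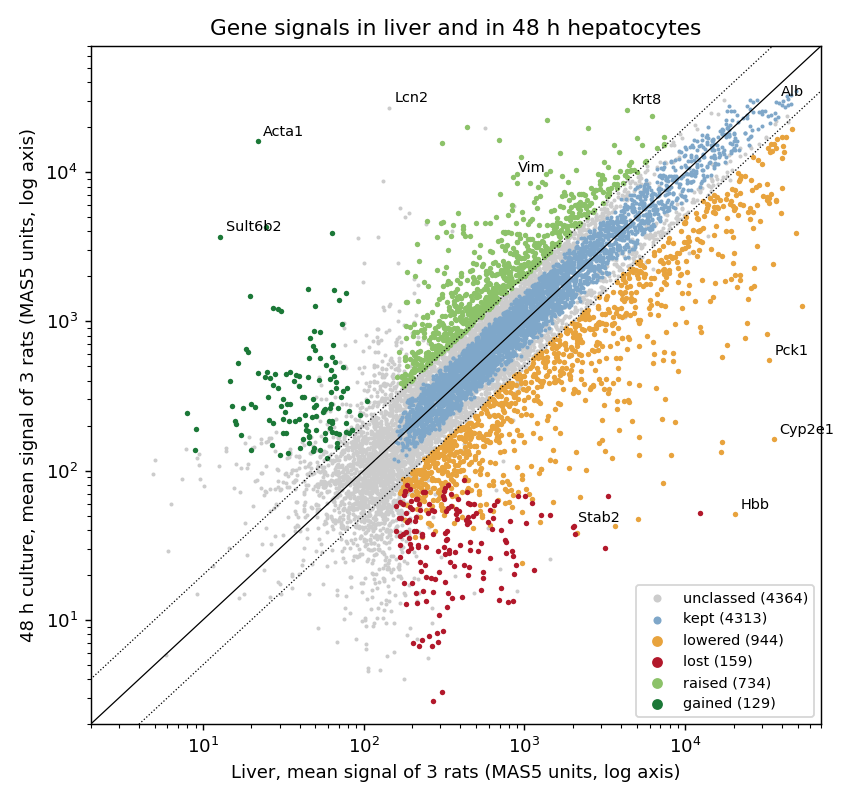
Mean MAS5 signal of each of the 10643 genes in liver (x axis, log scale) and after 48 hours of culture (y axis, log scale), 3 rats each, coloured by class. The solid line marks equal signals and the dotted lines 2-fold differences. The 4313 kept genes lie along the diagonal up to the brightest signals, the 159 lost genes lie low on the y axis and the 129 gained genes low on the x axis.

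Among the settings tried, the rule for low signals moved the lost and gained classes most. When group means replaced the every-array rule, 545 genes were lost and 292 gained. Centring left 2931 genes in the kept class, of which 2279 were among the 4313, whereas 153 of the 159 lost and all 129 gained genes stayed in their class. Low signals inflate folds, and 67 of the lost genes had a mean signal under 32 at 48 hours, as did 38 of the gained genes in liver. Without rat 1 the lost genes numbered 277. With 32 added to each signal the median of the lost genes was -2.41 in place of -3.36, and that of the gained genes 2.02 in place of 2.89. The differences within single animals rest on the rat labels, and the deviations of the livers of rats 1 and 2 from their group mean correlated no better with their own culture (r = -0.07 and -0.09 across genes) than with that of another rat (up to 0.13 and 0.10). By these labels the median difference of the lost genes was -2.95, -3.86 and -3.24 in rats 1, 2 and 3, and that of the gained genes was 3.11, 2.80 and 2.79. Among kept genes 39, 57 and 16 lay beyond 2-fold in the same rats.

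The step from 0 to 24 hours compares other arrays of the same rats, and its baseline is the isolated cell pellet. Its calls come from the fit of all 5 groups and so share an estimate of the spread with the liver and 48 hour samples. Over all genes, 24.2% were called up and 17.3% down between 0 and 24 hours. Of the 159 lost genes 135 (84.9%) fell in that step, and 751 of the 944 lowered genes (79.6%) did. Of the 734 raised genes 667 (90.9%) rose, and so did 113 of the 129 gained genes (87.6%). Of the kept genes 641 (14.9%) rose and 350 (8.12%) fell. With the 0 and 24 hour samples fitted alone, an alternative chosen after seeing the data, 19.7% of all genes were called up and 15% down, while 131 lost genes (82.4%) fell and 112 gained genes (86.8%) rose. Against liver the lost genes had a median of -0.71 in the pellet, which went to -1.68, -2.81 and -3.36 in the cultures of 4, 24 and 48 hours, while the gained genes went from -0.19 to 0.14, 2.10 and 2.89. Most of the median gain thus lay between 4 and 24 hours, while part of the median loss was already there in the pellet.

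Secreted plasma carriers and protease inhibitors mostly fell, some of them within 2-fold of liver and others strongly. Albumin (Alb), the main plasma protein, was kept: it read 36862, 37902 and 34896 in the livers of rats 1, 2 and 3 and 30005, 35299 and 24575 in their cultures (log2 fold change -0.30, SE 0.20, adjusted p = 0.233, 95% interval -0.74 to 0.13). The culture of rat 2 lay within the range of the livers and the other cultures below it. Its promoter is shown because albumin is the reference product of the hepatocyte. The 250 bases before the start (RefSeq, GRCr8, minus strand, chr14:17906980-17907229) hold in capitals the letters GTTAAT, the core of a site for HNF1, a liver homeobox factor.
Alb: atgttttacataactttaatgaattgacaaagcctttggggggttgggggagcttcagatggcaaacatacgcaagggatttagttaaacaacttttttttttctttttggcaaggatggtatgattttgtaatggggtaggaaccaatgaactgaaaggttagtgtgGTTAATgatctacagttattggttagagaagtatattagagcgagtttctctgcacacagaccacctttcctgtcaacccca
The carrier of thyroid hormone and retinol-binding protein Ttr gave 34129, 35819 and 32022 in liver and 26286, 25344 and 21521 at 48 hours, a called but small fall (log2 fold change -0.48, SE 0.14, adjusted p = 0.0138). By contrast Serpina6, the carrier of corticosterone, went from 16273, 17026 and 16770 to 95.4, 114 and 215 (log2 fold change -6.97, SE 0.31, adjusted p = 3.24e-09). Every culture lay far below every liver. Serpina7, which carries thyroxine (-4.19, SE 0.46), Afm, a vitamin E binding relative of albumin (-3.93, SE 0.17), and the protease inhibitor Serpina3c (-3.85, SE 0.27) were lowered too, whereas its relative Serpina3n was kept (-0.32, SE 0.15). Of 28 carriers and protease inhibitors tested, 25 fell, 0 rose and 10 were kept, with a median of -1.15 against 0.04 for all genes. The kept share was 35.7%, against 40.5% of all genes tested, and a kept gene could also be a called fall, as Ttr was. With arrays centred on their median 16 of the 28 still fell.

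Coagulation factors behaved likewise, with 13 of 15 falling, 0 rising and a median of -1.35. Fibrinogen beta (Fgb), the clot precursor, fell from 30822, 37697 and 34351 to 6730, 6997 and 7847 (log2 fold change -2.25, SE 0.19, adjusted p = 8.27e-07). Serpind1, the thrombin inhibitor heparin cofactor II (-4.89, SE 0.20), Klkb1, plasma prekallikrein (-3.07, SE 0.31), and plasminogen, Plg (-2.32, SE 0.35), were lowered. Coagulation factor V (F5, -0.26, SE 0.22) and protein S (Pros1, -0.16, SE 0.19) were kept. Among 18 complement genes 15 fell and 1 rose, with a median of -1.33. C4bpb, a chain of the C4 binding protein (-3.38, SE 0.27), and the terminal components C5 (-2.12, SE 0.19) and C8b (-1.85, SE 0.13) were lowered, while C3, the central component, stayed within 2-fold (-0.63, SE 0.14, interval -0.94 to -0.32).

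Apolipoproteins also mostly fell, with some kept within 2-fold. Apoa1, the main protein of high density lipoprotein, was kept (32406, 29586 and 28171 in liver, 26982, 28314 and 21769 at 48 hours, log2 fold change -0.23, SE 0.15, adjusted p = 0.215). Apoe was also kept (-0.46, SE 0.16), although its fall was called. Apoa2 fell from 41093, 41710 and 29396 to 4308, 8315 and 7536 (log2 fold change -2.51, SE 0.24, adjusted p = 2.98e-06), and Lcat, which esterifies plasma cholesterol, fell by a similar amount (-2.42, SE 0.20). Pltp, the phospholipid transfer protein, was lost (1206, 1917 and 1288 against 58.98, 27.9 and 78.8, log2 fold change -4.83, SE 0.33, adjusted p = 1.56e-07). In all, 17 of 20 genes of this list fell, 0 rose and 5 were kept (median -1.49, and -1.10 after centring, where 13 fell and 1 rose). Signals this bright could hide changes at the top of the scanner's range, which was not tested. Of 132 genes with a mean liver signal above 20000, 111 fell, 0 rose and 50 were kept, while 22.6% of all genes fell and 25.4% rose. These genes were picked by their liver signal, which is part of the same comparison and by itself favours falls. Their counts are therefore a description only.

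Cytochrome P450 enzymes fell steeply, with exceptions. Cyp2e1, which oxidizes ethanol and acetaminophen, read 34862, 35454 and 36005 in the 3 livers and 196, 116 and 191 in the cultures (log2 fold change -7.76, SE 0.32, adjusted p = 1.84e-09), so that 0.46% of the liver signal was left. The livers differed little from each other, and no culture came near them. Its promoter (RefSeq, GRCr8, plus strand, chr1:205269717-205269966) carries in capitals a TATAAA box, a motif whose share in the classes is given with the promoter composition.
Cyp2e1: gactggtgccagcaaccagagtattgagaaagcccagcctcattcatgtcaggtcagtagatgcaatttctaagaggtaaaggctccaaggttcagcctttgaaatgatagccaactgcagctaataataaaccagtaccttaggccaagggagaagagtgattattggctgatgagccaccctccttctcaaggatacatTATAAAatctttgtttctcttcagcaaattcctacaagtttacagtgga
Cyp1a2, the caffeine oxidase, fell from 20032, 27677 and 25568 to 753, 937 and 1291 (log2 fold change -4.64, SE 0.28, adjusted p = 4.73e-08). The steroid hydroxylases of male rats Cyp2c11 (33034, 32822 and 30778 to 5748, 8994 and 5237, log2 -2.32, SE 0.19) and Cyp3a2 (29965, 26012 and 27681 to 4671, 1613 and 4299, log2 -3.13, SE 0.33) were lowered, as was Cyp2c7 (-4.10, SE 0.30). Cyp4b1 was lost (-3.96, SE 0.44, -2.89 with the offset of 32). The family was not uniform: Cyp2c22 (28257, 24825 and 22710 in liver, 32024, 33401 and 25861 at 48 hours, log2 fold change 0.27, SE 0.15, adjusted p = 0.163) and Cyp2f4 (-0.01, SE 0.20) were kept. Over the list, 29 of 45 genes fell, 5 rose and 4 were kept, with a median of -1.49. Members of this family resemble each other in sequence, so some probe sets could read more than 1 gene.

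Conjugating enzymes were split by family member. Among cytosolic sulfotransferases, Sult1c3 (15434, 17927 and 17378 to 177, 123 and 177, log2 fold change -6.75, SE 0.18, adjusted p = 6.75e-11) and the oestrogen sulfotransferase Sult1e1 (-5.31, SE 0.32) were lowered, and Sult1c2 was lost (-4.48, SE 0.64). Sult1a1, the phenol sulfotransferase (-0.06, SE 0.15), and Sult1b1 (0.06, SE 0.13) kept their liver level, and Sult6b2 was gained (9.46, 9.78 and 22.8 in liver, 4193, 4740 and 2529 at 48 hours, log2 fold change 8.17, SE 0.39, adjusted p = 5.62e-09, 6.34 with the offset). Every culture was high and every liver near the low end of the array. Of 38 conjugating and other drug enzymes 21 fell, 3 rose and 7 were kept (median -0.69).

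Uptake and efflux at the cell surface fell broadly. Slc10a1, the sodium-dependent bile acid importer of the sinusoidal membrane, went from 23784, 29757 and 27570 to 1539, 1285 and 2547 (log2 fold change -3.97, SE 0.23, adjusted p = 3.75e-08). Aqp9, the glycerol channel, was lowered (-5.35, SE 0.18), and both subunits of the canalicular sterol exporter were lost, Abcg5 (-4.78, SE 0.38, -3.66 with the offset) and Abcg8 (-3.98, SE 0.42, -2.81 with the offset). Slc2a2, the liver glucose carrier, was kept (14829, 11719 and 14949 against 17312, 15587 and 15036, log2 fold change 0.21, SE 0.15, adjusted p = 0.267), as was the amino acid carrier Slc38a4 (0.13, SE 0.17). Of 35 transporters 19 fell, 5 rose and 8 were kept, with a median of -1.49.

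The bile acid genes fell as a group, 11 of 16 with 0 rises and a median of -1.74 (-1.35 centred). Cyp7a1, the rate-limiting enzyme of bile acid synthesis, read 18974, 3055 and 4310 in liver and 681, 286 and 739 at 48 hours (log2 fold change -3.59, SE 0.67, adjusted p = 6.96e-04). The liver of rat 1 stood well above the other livers, yet all cultures lay below all livers. Cyp8b1, the sterol 12-alpha hydroxylase, was lowered (-5.01, SE 0.46), and Nr0b2 (SHP), the nuclear receptor that represses both genes, was itself lost (4838, 1362 and 1354 to 55.7, 36.2 and 25.8, log2 fold change -5.80, SE 0.55, adjusted p = 2.63e-06). The racemase Amacr fell (-3.53, SE 0.22), while the peroxisomal Hsd17b4 (-0.11, SE 0.15) and Acot8 (-0.09, SE 0.22) were kept.

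Amino acid catabolism fell broadly, with some enzymes kept. Arg1, the arginase that releases urea, was kept (25876, 21777 and 25552 in liver, 26131, 22854 and 20299 at 48 hours, log2 fold change -0.08, SE 0.14, adjusted p = 0.644). Cps1, which commits ammonia to the cycle, fell (-0.90, SE 0.16, adjusted p = 5.72e-04) with 53.7% of the liver signal left. Sds, the serine dehydratase, was lost (-4.47, SE 0.84, -2.89 with the offset), and Oat (-3.55, SE 0.41), Hgd of tyrosine breakdown (-3.36, SE 0.33) and the glycine methyltransferase Gnmt (-3.32, SE 0.27) were lowered. Tdo2, the tryptophan dioxygenase, was kept (0.11, SE 0.18). Over the 63 genes 47 fell, 4 rose and 16 were kept, with a median of -1.09, and 33 fell after centring.

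Fatty acid oxidation fell in 31 of 50 genes (2 rose, 12 kept, median -0.84). Fabp1, the liver fatty acid binding protein, had 54686, 53651 and 52150 in liver and 1331, 1436 and 1055 at 48 hours (log2 fold change -5.40, SE 0.17, adjusted p = 2.87e-10). The groups did not overlap. Acsm3, a medium chain acyl-CoA synthetase (-4.84, SE 0.23), Bdh1 of ketone body synthesis (-2.87, SE 0.26) and the fasting kinase Pdk4 (-2.85, SE 0.32) were lowered, whereas Hadhb of the mitochondrial beta-oxidation complex (0.02, SE 0.27) and Pdk2 (-0.05, SE 0.19) were kept. In fatty acid and triglyceride synthesis there were 7 rises and 8 falls of 29 (median 0.17), shares of 24.1% and 27.6% that lay near those of all genes. The desaturase Fads2 (-2.44, SE 0.43) and the elongase Elovl5 (-1.73, SE 0.14) were lowered, and the lipid droplet protein Cidea was raised (441, 442 and 393 to 4300, 3835 and 3127, log2 fold change 3.13, SE 0.18, adjusted p = 3.11e-08). In cholesterol synthesis 12 of 21 genes (57.1%) were kept, near the 52.4% of all liver-expressed genes, among them Dhcr7 (0.10, SE 0.20) and Sc5d (-0.04, SE 0.20), while squalene epoxidase, Sqle, was raised (1.17, SE 0.29) and Ebp lowered (-1.01, SE 0.15).

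Glucose metabolism changed in both directions. Pck1, the first committed enzyme of glucose production from lactate and amino acids, had 36421, 35916 and 28362 in liver and 665, 465 and 542 at 48 hours (log2 fold change -5.92, SE 0.30, adjusted p = 1.26e-08). All cultures lay below all livers, and the liver of rat 3 was the lowest of the livers. Its promoter (RefSeq, GRCr8, plus strand, chr3:182348322-182348571) is given beside that of albumin, since both hold the HNF1 letters, here on the other strand as ATTAAC, while 1 of these genes was kept and the other fell.
Pck1: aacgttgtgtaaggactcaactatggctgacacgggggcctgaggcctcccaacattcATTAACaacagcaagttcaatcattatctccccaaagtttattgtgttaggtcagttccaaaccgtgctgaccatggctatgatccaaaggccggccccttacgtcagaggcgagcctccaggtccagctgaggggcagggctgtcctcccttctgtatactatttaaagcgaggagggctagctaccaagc
Pyruvate carboxylase, Pc (-1.88, SE 0.31), and Fbp1 (-1.88, SE 0.25) of the same pathway were lowered, and Gbe1 of glycogen branching was kept (-0.19, SE 0.14). The gluconeogenesis and glycogen list had 11 falls, 2 rises and 8 kept of 23 (median -0.42). In glycolysis 9 of 21 genes rose and 1 fell (median 0.63): Aldoa, the muscle type aldolase, was raised (2193, 2397 and 2196 to 5870, 8273 and 7338, log2 fold change 1.65, SE 0.20, adjusted p = 1.91e-05), Aldoc, the brain type, was gained (3.80, SE 0.31, 2.57 with the offset), and the glucose carrier Slc2a1 was raised (1.32, SE 0.22). Pgk1 was kept (-0.10, SE 0.15). The only fall was that of Slc2a3, the neuronal type glucose carrier (-2.04, SE 0.65, -1.16 with the offset).

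**Figure D2:**
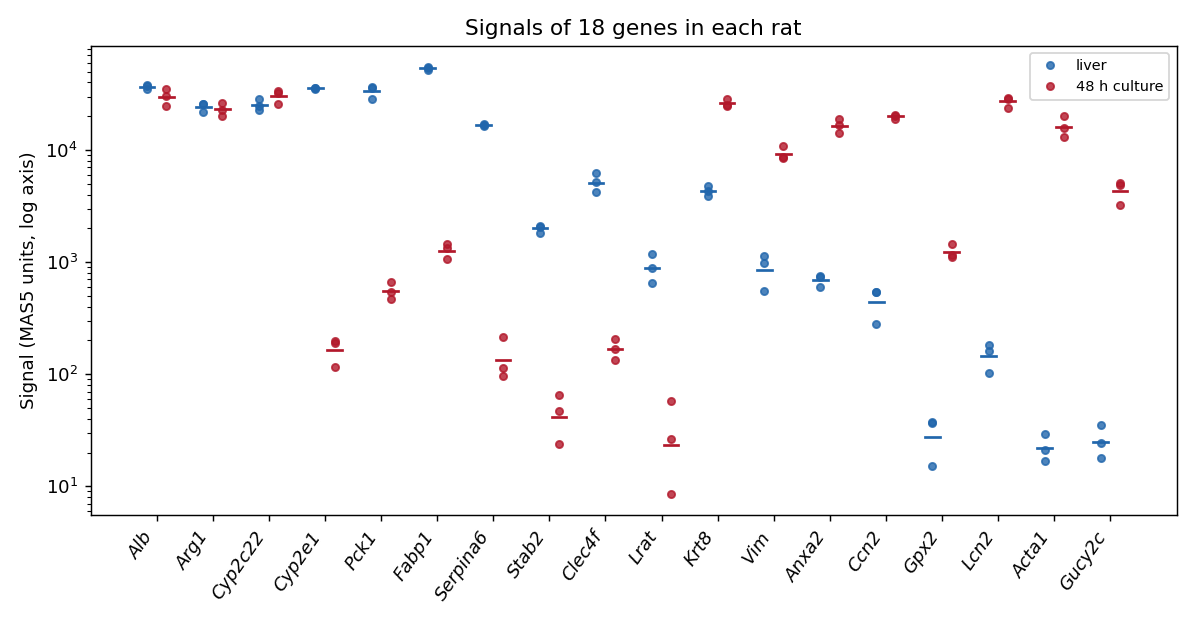
MAS5 signal (y axis, log scale) of 18 genes in each of the 3 rats, in liver and after 48 hours of culture; points are rats and short lines their geometric means. Alb, Arg1 and Cyp2c22 overlap or lie close between the groups, and Acta1 rises from between 16.9 and 29.3 in liver to between 13078 and 20239 in culture.

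The mitochondrial respiratory chain and the ribosome made up the best kept parts of the liver transcriptome among the lists. Of 69 subunits of oxidative phosphorylation 64 were kept, none was lowered or lost by the 2-fold rule, 17 fell and 1 rose. The list's median was -0.24 on the deposited scale and 0.15 after centring, so no direction is given for it. Cox6b1 of cytochrome oxidase read 10249, 9480 and 10447 in liver and 10342, 9716 and 9385 at 48 hours (log2 fold change -0.04, SE 0.11, adjusted p = 0.817, interval -0.28 to 0.21). The ranges of the groups overlapped. The largest of the called falls were in accessory subunits of complex I, such as Ndufa6 (-0.92, SE 0.13) and Ndufc1 (-0.84, SE 0.12, not called after centring), while Ndufb9 of the same complex was kept (0.01, SE 0.13). Of 40 cytosolic ribosomal proteins 37 were kept, 5 rose and 1 fell, with a median of 0.11 (0.50 centred, with 22 rises). Rps23 (24321, 23982 and 24337 in liver and 27229, 23614 and 22000 at 48 hours, log2 fold change -0.0017, SE 0.13, adjusted p = 0.992) and Rpl35 (-0.01, SE 0.15) lay nearest to liver, and Rpl3 rose (0.80, SE 0.19). Other genes whose intervals lay closest to 0 were Ostc and Ssr2 of protein entry into the endoplasmic reticulum, the mitochondrial ribosome protein Mrpl4, the complex III assembly factor Uqcc2, the growth kinase Mtor and the helicase Wrn, with log2 fold changes from -0.02 to 0.01 and SEs of 0.12 or 0.13.

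Most genes of translation and of the proteasome rose, and fewer of those that build ribosomes. Of 89 ribosome biogenesis genes 38 rose, 1 fell, 50 did not pass the test and 57 were kept (median 0.47), Pno1 being raised most among raised members (928, 488 and 777 to 1896, 2346 and 2063, log2 fold change 1.57, SE 0.21, adjusted p = 4.28e-05). Of 40 translation factors 27 rose and 0 fell (median 0.61), but 22 were kept within 2-fold of liver and 5 were raised. The rises included the initiation inhibitor Eif4ebp1 (1.92, SE 0.24) and Eif3m (1.17, SE 0.15), and Eef1b2 was kept (0.02, SE 0.17). Of 39 proteasome subunits 26 rose and 0 fell (median 0.58), but 24 were kept within 2-fold of liver and 3 were raised. Psma3 was kept (-0.04, SE 0.13), and Psmd8 rose (3156, 3296 and 2917 to 12169, 12777 and 10318, log2 fold change 1.91, SE 0.14, adjusted p = 2.25e-07). Centring the arrays raised these 3 medians to 0.86, 1.00 and 0.97, alongside the median of all genes. Of 38 heat shock proteins and chaperones 10 rose, 8 fell and 20 were kept (26.3% and 21.1% against 25.4% and 22.6% of all genes), with a median of -0.06 that turned to 0.33 on centring and also became positive after quantile normalization. The small heat shock proteins Cryab (149.7, 239.7 and 134 to 4528, 7984 and 5355, log2 fold change 5.10, SE 0.44, adjusted p = 1.11e-06) and Hspb1 (2.50, SE 0.24) and the co-chaperone Dnajb4 (3.02, SE 0.32) rose, and calnexin, Canx, was kept (-0.10, SE 0.17).

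**Figure D3:**
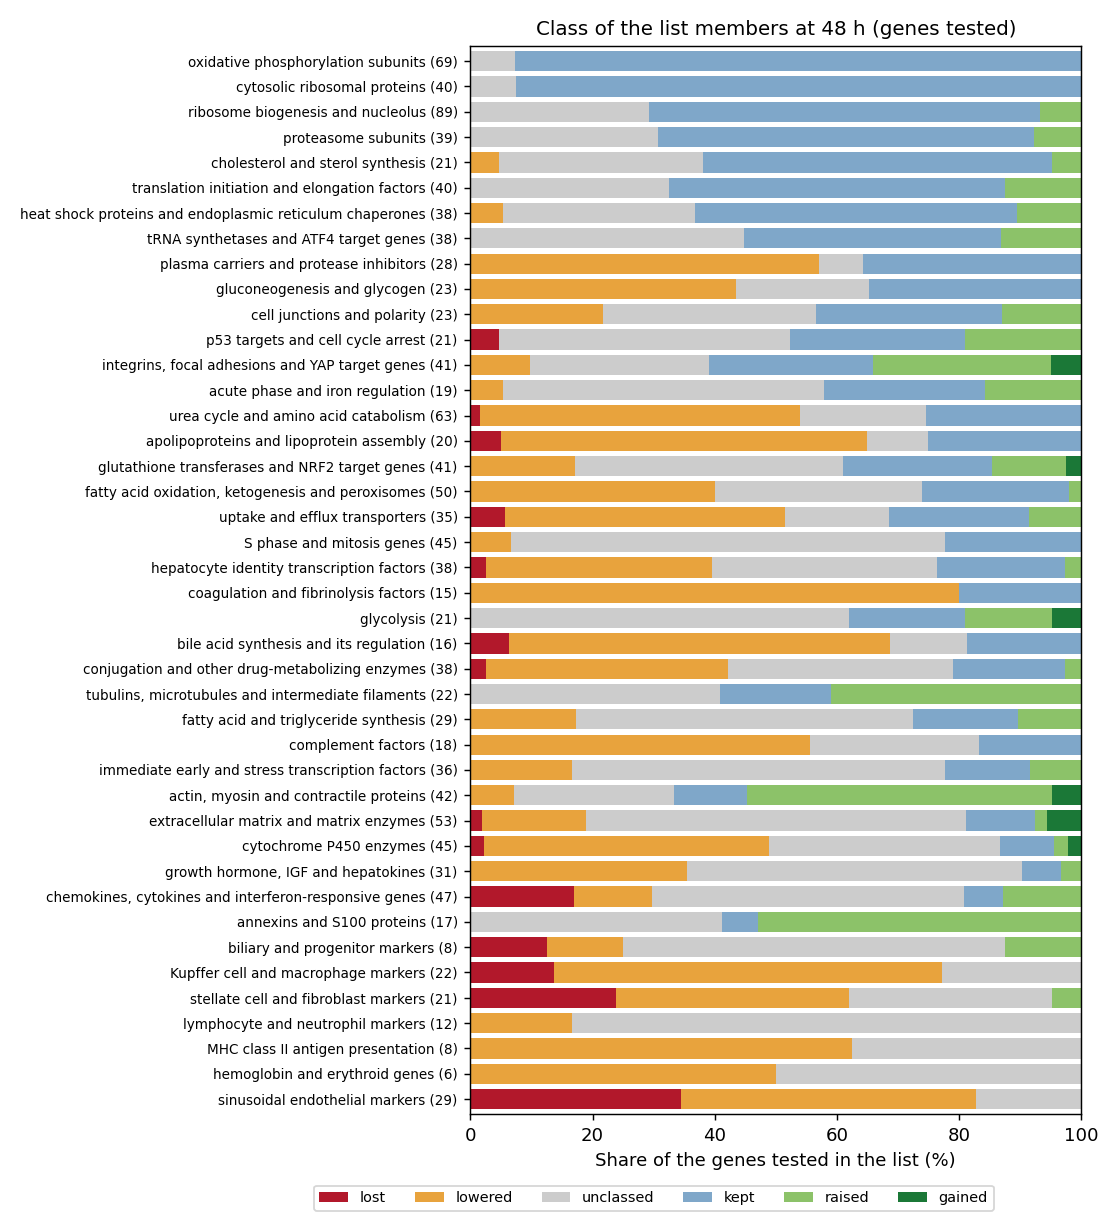
Share (x axis, %) of the tested genes of each of 42 lists that were lost, lowered, unclassed, kept, raised or gained at 48 hours against liver, with the number of genes tested in brackets. Oxidative phosphorylation subunits (64 of 69) and cytosolic ribosomal proteins (37 of 40) hold the largest kept shares, and the sinusoidal endothelial list holds none.

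Transcription factors of hepatocyte identity fell in 22 of 38 cases, with 1 rise, 8 kept and a median of -0.75 (-0.35 centred, with 14 falls and 4 rises). Hnf4a, the central factor of the hepatocyte network, was 11925, 9518 and 9133 in liver and 5552, 4467 and 5896 at 48 hours (log2 fold change -0.94, SE 0.19, adjusted p = 0.00105), so 52.1% was left and its interval crossed the 2-fold limit. After centring the fall was -0.55 and no longer called (adjusted p = 0.0678 by limma). Cebpa, which drives metabolic liver genes, fell further (6005, 8881 and 5495 to 1343, 1036 and 1664, log2 fold change -2.33, SE 0.30, adjusted p = 3.09e-05). Nr1h4, the bile acid receptor FXR, was lowered (-2.07, SE 0.28), as was Onecut1 (-2.82, SE 0.99, adjusted p = 0.0316, a call that ended without the liver of rat 2 or 3 or the culture of rat 1 or 2), whereas the xenobiotic receptor Nr1i2 (PXR, -0.10, SE 0.20) and the clock output factor Tef (-0.03, SE 0.27) were kept. Of 31 genes of growth hormone and IGF signalling and hepatokines 17 fell, 2 rose and 2 were kept (median -1.55). Igfals, the acid-labile subunit that holds IGF in plasma, went from 4133, 7338 and 4290 to 35.4, 101 and 29.7 (log2 fold change -6.74, SE 0.48, adjusted p = 1.99e-07), and Igfbp3, which forms the same complex, was lowered (-5.06, SE 0.43). Cish, a feedback target of growth hormone, also fell (-3.15, SE 0.91, not called without the liver of rat 2), and the hepatokine Lect2 was kept (0.24, SE 0.14). The fetal plasma protein Afp did not pass the test (816, 959 and 725 in liver, 666, 753 and 281 at 48 hours, log2 fold change -0.67, SE 0.38, adjusted p = 0.16), though it did with the rat as a block (adjusted p = 0.0198).

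Markers of the other cells of the liver made up a separate group of losses, and in these bulk samples fewer cells of a type and less RNA per cell cannot be told apart. Of 29 sinusoidal endothelial markers 27 fell, 0 rose and 0 were kept (median -3.67). The scavenger receptor Stab2 was lost (2063, 1826 and 2110 to 46.7, 23.97 and 65.3, log2 fold change -5.58, SE 0.46, adjusted p = 7.41e-07), Kdr, the VEGF receptor, was lowered (-6.42, SE 0.48), and the sialomucin Emcn was lost (-4.71, SE 0.32, -3.38 with the offset). The summed signal of the list over the 3 rats was 28612 to 36137 in liver, 16756 to 25823 in the cell pellet and 2800 to 4214 at 48 hours. The pellet thus lay between liver and culture, with no overlap among the 3 groups. Of the 29 genes 12 were at or below the median on all 48 hour arrays, Stab2 among them, while the endothelial receptor Lyve1 stayed above it on all 8.

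Of 22 Kupffer cell and macrophage markers 19 fell and 0 rose (median -2.59), with a summed signal of 41388 to 55466 in liver, 30914 to 32297 in the pellet and 7413 to 10448 at 48 hours. Clec4f, the Kupffer cell lectin, fell from 5172, 6223 and 4181 to 207, 135 and 169 (log2 fold change -4.94, SE 0.19, adjusted p = 1.23e-09) yet stayed above the median on all 8 culture arrays, as did C1qa of complement, and Cd68 of lysosomes was lowered (-2.60, SE 0.23). Aif1 (-5.44, SE 0.39, -3.87 with the offset) and Adgre1 (-4.85, SE 0.37, -3.48 with the offset) were lost. Of 21 stellate cell and fibroblast markers 16 fell and 1 rose (median -2.96), with sums of 24139 to 33616 in liver, 11959 to 21807 in the pellet and 3516 to 6574 at 48 hours. Lrat, which makes the retinyl esters that stellate cells store, was lost (656, 893 and 1192 to 26.5, 8.52 and 57.4, log2 fold change -5.24, SE 0.77, adjusted p = 9.94e-05, -3.91 with the offset), as were Pdgfra (-5.40, SE 0.69, -3.91 with the offset) and Vipr1 (-5.57, SE 0.31). The other defining stellate markers were not uniform. Reln (-2.50, SE 0.33), which stayed above the median on all 8 culture arrays, and Pdgfrb (-2.09, SE 0.54) were lowered. Desmin, Des, did not pass the limma test (-0.07, SE 0.40, adjusted p = 0.902). The collagen gene Col1a1 did not pass the test (132, 276 and 285 in liver, 190.1, 84.9 and 184 at 48 hours, log2 fold change -0.60, SE 0.44, adjusted p = 0.277). Of 53 matrix genes 20 fell, 9 rose and 6 were kept (median -0.74), with Fn1, the fibronectin that hepatocytes also secrete, kept (0.13, SE 0.17) and Col14a1 lowered (-3.62, SE 0.42).

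All 8 MHC class II genes fell (median -2.88, 7 of 8 after centring), for example the invariant chain Cd74 (3062, 5230 and 3311 to 228, 229 and 326, log2 fold change -3.87, SE 0.22, adjusted p = 3.75e-08). Lymphocyte and neutrophil markers fell in 11 of 12 tested cases and rose in 1 (median -1.81), with sums of 2073 to 3858 in liver and 758 to 1016 at 48 hours. The list has 29 genes on the array, and most did not pass the filter on low signals. The defining lymphocyte markers Cd3e, Cd79b and Nkg7 were not tested. Dim markers can pass that filter through the liver arrays alone, so the falls of this list can be partly set by it. The stellate, red cell and biliary lists were also cut, with 21 of 28, 6 of 10 and 8 of 17 genes tested. Red cell genes showed the earliest loss. Hbb, the beta-globin, read 5219, 41369 and 38946 in the livers and 108, 22.4 and 54.4 at 48 hours (log2 fold change -8.64, SE 1.05, adjusted p = 2.12e-05), and the pellet mean was 284. The liver of rat 1 held less Hbb than the livers of the other rats, and the SE of this gene was accordingly wide. Hba-a3 (-6.45, SE 0.77) fell with it, and 5 of 6 tested genes of the list fell (median -4.67). Krt19 of bile ducts fell (92.4, 175 and 222 to 30.99, 12.1 and 51.4, log2 fold change -2.51, SE 0.50, adjusted p = 0.00105, -1.61 with the offset), while Epcam, which biliary and progenitor cells carry, was raised (1.61, SE 0.19). Of the other defining bile duct markers, Krt7 was not tested. Sctr did not pass the limma test (0.03, SE 0.33, adjusted p = 0.941) and exceeded the median on only 1 liver array. Of the 8 tested genes of the biliary list 3 fell and 1 rose, with a median of -0.32 that turned to 0.07 on centring. Of the 159 lost genes 18 stand on 1 of these lists of other cell types, 17 stand only on other lists and 124 stand on no list.

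Chemokines, cytokines and interferon-responsive genes fell in 21 of 47 cases and rose in 11 (median -0.73), and in 17 and 15 cases after centring. Cxcl12, the homing chemokine, was lowered (8629, 7687 and 8119 to 144, 99.8 and 142, log2 fold change -6.00, SE 0.19, adjusted p = 2.87e-10), and Il1a (-5.68, SE 0.35, -3.92 with the offset) and the B cell chemokine Cxcl13 (-4.77, SE 0.38, -2.83 with the offset) were lost. The macrophage and lymphocyte sums given above fell beside them, and the part of those cells in these values was not tested.

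**Figure D4:**
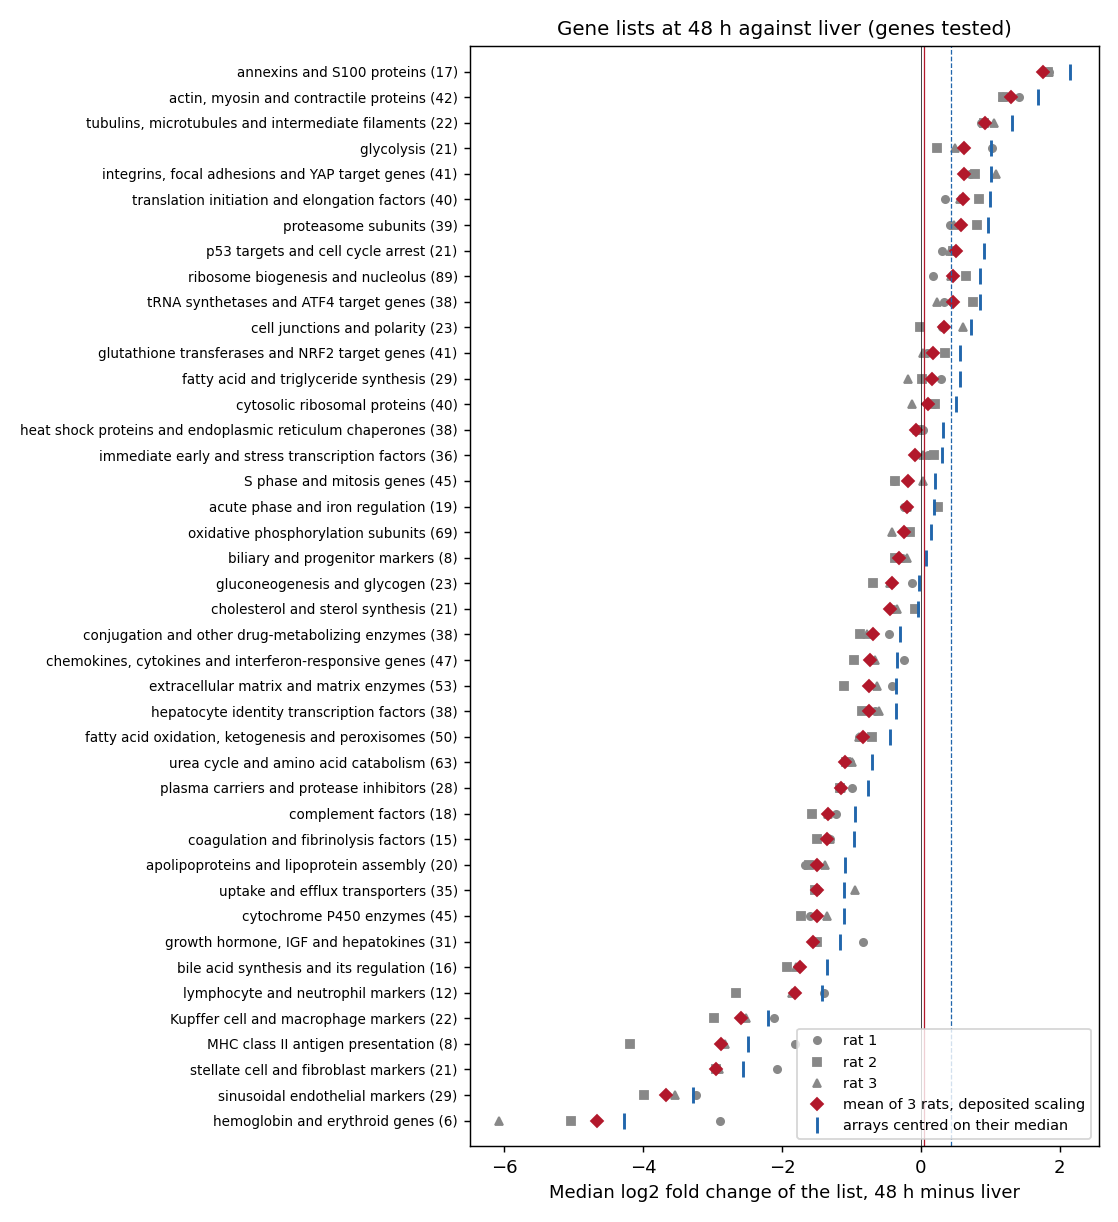
Median log2 fold change, 48 hours minus liver (x axis), of 42 gene lists in each rat (grey), over the mean of the 3 rats (red diamonds) and with arrays centred on their median (blue bars); the red and dashed blue lines are the medians of all genes (0.04 and 0.43). The lowest medians are those of hemoglobin and erythroid genes (-4.67) and sinusoidal endothelial markers (-3.67), while biliary and progenitor markers lie at -0.32, and annexins and S100 proteins highest (1.76).

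Cytoskeletal genes rose broadly. Acta1, the skeletal muscle actin, was nearly silent in liver (29.3, 21.2 and 16.9) and bright in culture (15835, 20239 and 13078), a rise of 9.52 on the log2 scale (SE 0.56, adjusted p = 4.42e-08, 8.10 with the offset). No liver and culture values overlapped, and the order of rats differed between the groups. The 250 bases before its start (RefSeq, GRCr8, minus strand, chr19:68784195-68784444) are shown because they hold, in capitals, a CArG box, the site of serum response factor, and a TATAAA box.
Acta1: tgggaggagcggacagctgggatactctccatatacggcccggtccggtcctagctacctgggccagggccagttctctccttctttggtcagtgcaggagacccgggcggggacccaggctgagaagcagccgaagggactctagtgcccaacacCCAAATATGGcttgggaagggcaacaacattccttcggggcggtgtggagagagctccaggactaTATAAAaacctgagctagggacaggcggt
Of 42 genes of actin, myosin and contraction 30 rose, 4 fell and 5 were kept, with a median of 1.30. The actin crosslinker Flna was raised (446, 641 and 638 to 3935, 5584 and 4355, log2 fold change 3.01, SE 0.29, adjusted p = 2.77e-06), and Tagln, a smooth muscle actin-binding protein, rose (5.29, SE 0.41), as did villin, Vil1, of microvilli (5.15, SE 0.56, 3.70 with the offset). Actr2 of branched actin (0.14, SE 0.18) and radixin, Rdx (-0.37, SE 0.15, adjusted p = 0.0622, 0.0405 with the rat as a block), were kept. Tubulins and intermediate filaments rose in 12 of 22 cases and fell in 2 (median 0.92). The hepatocyte keratins Krt8 (3897, 4338 and 4765 to 24916, 28266 and 25277, log2 fold change 2.60, SE 0.18, adjusted p = 1.56e-07) and Krt18 (1.94, SE 0.17) were raised. Vimentin, Vim, which mesenchymal cells also express, went from 553, 1132 and 972 to 8417, 10882 and 8615 (log2 fold change 3.45, SE 0.27, adjusted p = 5.83e-07). Which cells carried the Vim signal was not tested. Tubb6 was raised (3.53, SE 0.24) and Tubb2a kept (0.23, SE 0.17).

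Adhesion genes rose with them. Of 17 annexins and S100 proteins 12 rose and 2 fell, with a median of 1.76, the highest of the 42 lists. S100a6 (241, 419 and 291 to 16457, 17881 and 13311, log2 fold change 5.67, SE 0.33, adjusted p = 3.99e-08), S100a11 (5.13, SE 0.31) and Anxa2, the membrane-binding annexin (602, 748 and 744 to 16649, 18764 and 14243, log2 fold change 4.57, SE 0.20, adjusted p = 2.76e-09), showed this most. All cultures lay above all livers. Of 41 integrin, focal adhesion and YAP target genes 23 rose and 5 fell (median 0.63). Ccn2, a matrix protein gene induced by YAP and by TGF-beta, was raised (546, 545 and 279.5 to 20680, 20094 and 19029, log2 fold change 5.51, SE 0.48, adjusted p = 1.13e-06), Ankrd1, another YAP target, was gained (3.71, SE 0.67), and the platelet integrin chain Itgb3 was lowered (-3.63, SE 0.54). Of 23 cell junction genes 7 rose and 7 fell (30.4% each, against 25.4% and 22.6% of all genes, median 0.34), with Cldn2 (-2.10, SE 0.22) lowered and beta-catenin, Ctnnb1, kept (-0.21, SE 0.15).

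Antioxidant and acute phase genes are described by single members, since the shares of their lists that rose and fell lay near those of all genes (25.4% and 22.6%). Of 41 glutathione transferases and NRF2 target genes 14 rose (34.1%), 11 fell (26.8%) and 10 were kept (median 0.18). The list does not hold the transferase Gstp3, which was lost (-7.89, SE 0.27) and is described below. Gpx2, a glutathione peroxidase known from gut epithelium, was gained (37.3, 36.5 and 15.01 in liver, 1099, 1156 and 1463 at 48 hours, log2 fold change 5.49, SE 0.53, adjusted p = 2.77e-06, 4.31 with the offset), and its promoter (RefSeq, GRCr8, minus strand, chr6:101230034-101230283) holds in capitals the letters TGACNNNGC of the antioxidant response element on the other strand.
Gpx2: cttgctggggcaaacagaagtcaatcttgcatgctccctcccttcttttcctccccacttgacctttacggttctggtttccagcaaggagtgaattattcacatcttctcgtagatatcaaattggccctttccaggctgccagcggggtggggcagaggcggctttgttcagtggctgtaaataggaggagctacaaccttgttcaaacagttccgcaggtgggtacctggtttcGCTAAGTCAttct
Gstm3 rose (185, 121 and 101 to 9895, 7002 and 9477, log2 fold change 6.05, SE 0.33, adjusted p = 2.29e-08), Gstt3 was lowered (-2.92, SE 0.28), and Mgst2 (0.09, SE 0.14) and the epoxide hydrolase Ephx1 (0.06, SE 0.14) were kept. Among 19 acute phase and iron genes 5 rose, 5 fell (26.3% each) and 5 were kept, with a median of -0.20 that turned to 0.19 on centring. Lcn2, the iron-scavenging lipocalin, rose from 102, 181 and 162 to 28519, 29258 and 23795 (log2 fold change 7.55, SE 0.53, adjusted p = 1.73e-07), and the rat acute phase inhibitor A2m was raised (2250, 2053 and 3315 to 23420, 15879 and 20277, log2 fold change 2.98, SE 0.23, adjusted p = 5.17e-07). All cultures lay above all livers. Orm1, a further acute phase protein, was kept (0.12, SE 0.18), and Tfr2 of iron sensing was lowered (-1.65, SE 0.20).

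Of 36 immediate early and stress transcription factors 11 rose (30.6%) and 8 fell (22.2%), near the shares of all genes (median -0.08, 0.31 centred), among them Klf6 (3.52, SE 0.33) and Gadd45b (4.62, SE 0.72) upward and Gadd45g downward (-3.01, SE 0.27). Of 45 S phase and mitosis genes 9 fell (20%), 4 rose (8.89%) and 10 were kept, with a median of -0.18 that was 0.21 centred and also positive after quantile normalization. The share that fell lay near the 22.6% of all genes, and the share that rose below their 25.4%. Top2a was lowered (-1.12, SE 0.33, but not called after centring, adjusted p = 0.0582) and thymidine kinase, Tk1, kept (0.03, SE 0.17). Of 21 p53 target and arrest genes 9 rose and 2 fell (median 0.51), with Ccng1 (553, 646 and 637 to 3856, 5158 and 4689, log2 fold change 2.89, SE 0.16, adjusted p = 2.69e-08) and the death receptor Fas (1.93, SE 0.44) raised and the growth inhibitor Cdkn1c lost (-2.18, SE 0.41).

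Apart from the genes already described, the largest gains were those of Gucy2c, the intestinal guanylate cyclase receptor (34.9, 24.2 and 17.9 to 4885, 3223 and 5050, log2 fold change 7.44, SE 0.45, adjusted p = 5.59e-08, 6.16 with the offset), the glycosyltransferase B3galnt1 (6.22, SE 0.55, 4.81 with the offset), the small GTP-binding protein Rnd1 (5.96, SE 0.22), Tlcd3a (5.37, SE 0.48, 4.26 with the offset), the defensin Defb1 (5.26, SE 0.51, 4.20 with the offset), periplakin, Ppl (5.19, SE 0.63), and the ATP-gated channel P2rx5 (5.03, SE 0.42, 3.63 with the offset). Several of these are known from epithelia other than liver. Of the 129 gained genes 10 stand on a list and 119 on none. The largest losses outside the lists were those of Gstp3 (13226, 12908 and 11143 to 49.2, 59.4 and 48.3, log2 fold change -7.89, SE 0.27, adjusted p = 3.54e-10), a pi class glutathione transferase, and Stac3 (-6.71, SE 0.83, -5.51 with the offset), followed by LOC102554026, an uncharacterised locus (-6.00, SE 0.37, -4.23 with the offset), and Adam23 (-5.91, SE 0.40, -4.03 with the offset). Krt79 and Ddx60 had log2 fold changes of -6.55 and -6.55, but -3.26 and -3.01 with the offset, since their mean culture signals were 3.29 and 2.88.

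**Figure D5:**
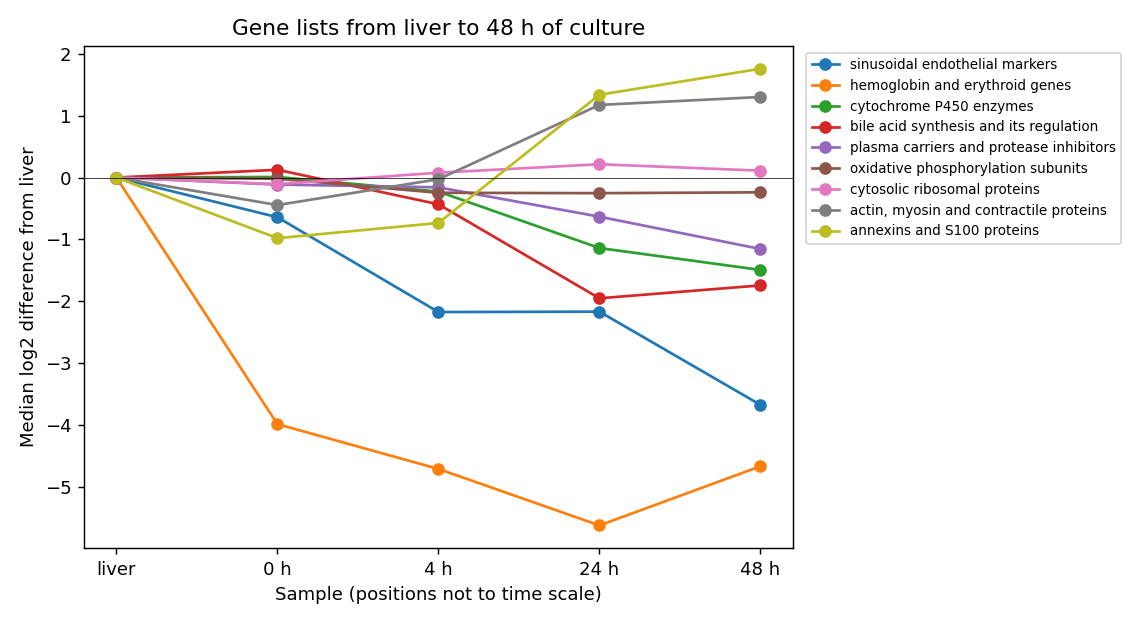
Median log2 difference from liver (y axis) of 9 gene lists in the isolated cells (0 hours) and in cultures of 4, 24 and 48 hours (x axis, not to time scale); each point is the median over the tested genes of the mean of 3 rats. Red cell genes fall at isolation, endothelial markers by 4 hours and again by 48 hours, P450 and bile acid genes between 4 and 24 hours, and the medians of oxidative phosphorylation and ribosomal protein genes stay near 0 (-0.24 and 0.11 at 48 hours).

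The list medians over time, all set against the same liver samples, placed these changes in order. For red cell genes the median was already -3.99 in the pellet. For endothelial markers it was -0.64 in the pellet, -2.17 in the 4 hour and in the 24 hour cultures, and -3.67 in those of 48 hours. For P450 genes it was 0.01 at 0 hours, and 28 of 45 fell and 6 rose between 0 and 24 hours, a step with a median of -1.28 (28 and 4 with these samples fitted alone). In that same step 13 of 16 bile acid genes fell (median -2.08), 49 of 63 amino acid genes fell (median -1.32), 32 of 42 actin and contractile genes rose (median 1.31) and 13 of 17 annexin and S100 genes rose (median 1.89). Fitted alone, the 0 and 24 hour samples gave 13, 47, 31 and 13 such genes. Among ribosomal proteins 12 of 40 rose and 0 fell, and among oxidative phosphorylation subunits 12 of 69 fell and 0 rose. These shares of 30% and 17.4% lay near the 24.2% of all genes called up and the 17.3% called down in that step. With the 0 and 24 hour samples fitted alone, 6 ribosomal proteins rose (15%) and 4 oxidative phosphorylation subunits fell (5.8%). Of all genes 19.7% were then called up and 15% down, so the second share lay below that of all genes.

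Promoter composition, which the classes did not use, is given for the classes as a description without a test. RefSeq promoters (GRCr8, from 250 bases before to 50 after the first listed start of each gene) were found for 8894 of the 10643 genes. CpG-rich promoters, with an observed to expected CpG ratio of at least 0.6, made up 82.3% of kept genes (3690 promoters), 30.2% of lost genes (129) and 78.4% of raised genes (620), against 72.2% of all tested genes and 36.9% of all 27457 promoters. TATAAA on the strand of the gene stood in 3.63% of kept, 17.1% of lost and 4.68% of raised promoters, in 4.68% of those of all genes tested and in 9.08% of all promoters. The AP-1 letters TGANTCA, a palindrome read on both strands, stood in 3.9% of kept, 8.87% of raised and 14% of lost promoters (18 of 129). The shares were 4.89% of genes tested and 7.33% of all promoters. GTTAAT on either strand, as in the albumin and Pck1 promoters, stood in 4.15% of kept, 3.88% of lost and 2.9% of raised promoters (4.42% of genes tested, 7.37% of all). The letters TGACNNNGC, which can overlap TGANTCA, stood in 31.4% of 35 promoters of glutathione transferase and NRF2 target genes, 14.8% of those of genes tested and 12.2% of all promoters. By class these letters stood in 15% of kept, 20.2% of lost and 14.4% of raised promoters. The CArG box stood in 11.4% of 35 promoters of actin and contractile genes, which is 4 promoters, in 1.39% of genes tested and in 1.64% of all. The same check is void for lowered and gained genes, of which 739 of 944 and 99 of 129 had a promoter, under 80%. A match is only a match of letters.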

How the data were processed

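Total RNA of 43 samples was hybridized to Affymetrix RG230-2 arrays. The authors deposited linear intensity values in 1 table, made with the MAS5 algorithm and scaled to a trimmed mean of 500 per array; the sample records name MAS5 and the affy package, without saying which of them made the table. Detection calls and a genome build were not used here. Groups, rats and technical arrays were taken from the sample titles, and each array stayed with its labelled rat. The deposited intensities were converted to log2 values with no offset, and technical arrays were averaged per rat and group, giving 15 samples. Values are signals, so no read depth applies.

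Of 31099 probe sets 57 are controls, 20826 list 1 gene, 436 several and 9780 none. Names came from the platform annotation, and 20758 of the probe sets with 1 gene matched RefSeq by gene identifier. Probe sets with 1 gene were kept when above the array median on at least 5 arrays (10% or more), which left 14553, and each gene was represented by its brightest probe set on average. Of 2913 genes with several, 14 had another that moved the opposite way by 2-fold. All 5 groups entered 1 limma fit (lmFit and eBayes, limma 3.58.1, R 4.3.3, 3.28 prior degrees of freedom) without a rat term, and p-values were adjusted by Benjamini-Hochberg over all 10643 genes. An adjusted p below 0.05 was called. The fit was tested on simulated data.

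The members and the 42 gene lists (1459 genes on the array) were chosen with earlier results of these data known. Genes were named by a rule: the 15 largest rises and falls with the same sign in all 3 rats, the 10 kept genes with intervals closest to 0, up to 4 called and 2 kept members per list, and a set of well-known liver genes, of which Tf, G6pc and Actb were not analysed here. Genes with a mean signal under 32 in a group are also given with an offset of 32 added. The samples are paired by animal, as the labels name the rat. Residuals of liver and 48 hour samples of the same rat had r of -0.07, -0.09 and 0.08, against at most 0.13, 0.10 and -0.01 with another rat, so that liver and culture show no pairing for rats 1 and 2. Over all groups the median was 0.34 for the 30 pairs from 1 animal and -0.18 for the 60 pairs from different animals, and the rat as a block was an alternative. Another, fitting the 0 and 24 hour samples alone, was added after seeing the data. Other alternatives changed the scaling, offset, filter, probe set, technical arrays, samples in the fit, prior, thresholds and left-out samples. Figures were drawn with matplotlib in Python.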

Additional observations from a re-analysis of the deposited data

How the results depend on the processing

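With 3 rats a side and no detection calls, low signals and small differences are the least certain. Centring on the array median gave 4317 rises and 1443 falls in place of 2700 and 2402, and the beta-actin ratio as a covariate gave 2840 calls (1455 up, 1385 down) and 2494 kept genes. The first technical array alone gave 331 lost genes, group means in place of every array gave 545 lost and 292 gained, and a 1.5-fold margin left 1369 kept genes. Leaving out 1 sample or rat gave 3361 to 4715 calls in place of 5102 (1782 to 2429 up, 1579 to 2311 down), 3348 to 4048 kept, 167 to 277 lost and 131 to 167 gained genes. The share of lost genes that fell between 0 and 24 hours was then 61.4% to 88.0%, and that of gained genes that rose 76.6% to 88.5%. With the rat as a replicate block there were 5871 calls (3059 up, 2812 down), 4670 kept, 159 lost and 128 gained genes, and among the genes named in the text the calls of Afp (adjusted p = 0.16 to 0.0198 by limma) and Rdx (0.0622 to 0.0405) changed. Over 4069 repeats for 177 genes, 3997 kept the side of the threshold or the class, 40 lost a call, 2 gained a call, 30 left the kept class and 0 reversed.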
